A study of Mus musculus with 2 samples.

Results

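The MHC class I presentation pathway was described here through 10 genes: B2m, Tap1, Tap2, Tapbp, Tapbpl, Psmb8, Psmb9, Psmb10, Erap1 and the regulator Nlrc5. They were chosen by name, and all 10 were measured, out of 19938 genes with a probe set of their own. The cells were plasmacytoid dendritic cells (pDCs) of mouse bone marrow, which secrete large amounts of type I interferon. The first sample came from Runx2-/- fetal liver chimeras, mice given fetal liver cells that lack the transcription factor Runx2 and that then rebuild their blood cells. The second came from wild type fetal liver chimeras, and both were taken 2 months after reconstitution. Cells were sorted as CD11b- BST2+ B220+, a gate meant to leave out CD11b+ cells, and the marrow of such chimeras can still hold host cells. Each sample was hybridised to 1 Affymetrix Mouse Gene 1.0 ST array from 250 ng of total RNA. The labels do not give the animals' age or how many mice gave each sample. With 1 array per genotype no difference below has a standard error, a p-value or a replicate check, and a difference between the genotypes cannot be told apart from one between 2 animals or 2 preparations.

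In the class I pathway the proteasome cuts cytosolic proteins into peptides, the TAP transporter carries them into the endoplasmic reticulum, chaperones hold the class I molecule while a peptide is loaded, and the complex of heavy chain, B2m and peptide goes to the cell surface for CD8+ T cells to read. Interferons exchange the catalytic subunits of the standard proteasome for those encoded by Psmb8, Psmb9 and Psmb10, which gives the immunoproteasome. Nlrc5 is an interferon-inducible protein of the NLR family that acts in the nucleus as a transactivator of class I genes, among them B2m, Tap1 and Psmb9, in the way that its relative Ciita acts on class II genes. pDCs are best known for interferon secretion and also present antigen.

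Promoter sequences from RefSeq (GRCm38.p6, 250 bases before the start and the first bases after it) were found for 7 of the 10 genes: B2m, Tap1, Tapbp, Psmb8, Psmb9, Psmb10 and Erap1. They are shown for 4 of them, B2m and Erap1 because they hold the interferon-response motif and Tap1 with Psmb9 because both genes start from the same stretch. Capitals mark the motif matches, and the strand shown is plus.
B2m, chr2:122147543-122147643: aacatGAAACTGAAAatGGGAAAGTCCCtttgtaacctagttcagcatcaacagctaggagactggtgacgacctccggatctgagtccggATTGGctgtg
Tap1 and Psmb9, chr17:34187331-34187555: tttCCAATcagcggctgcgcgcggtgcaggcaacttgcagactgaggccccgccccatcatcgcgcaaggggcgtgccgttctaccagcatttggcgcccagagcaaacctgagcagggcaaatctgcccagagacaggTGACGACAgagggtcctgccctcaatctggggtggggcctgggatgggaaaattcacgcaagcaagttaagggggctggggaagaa
Erap1, chr13:74639841-74639866: accttcacTTTCACTTTCggtcccgg

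In B2m the first capitals are the interferon-response motif (GAAA, any 2 bases, GAAA), which starts 139 bases before the gene. They are followed by 2 overlapping matches of an NF-kappaB-like motif (GGGA, any 4 bases, CC; in 20.7% of all promoters), 1 on each strand, and by the reverse strand of the NF-Y box CCAAT. In Erap1 the interferon-response motif lies on the reverse strand across the annotated start. That motif was found in 2 of the 7 promoters, and 3.44% of all 32851 promoters hold it on either strand. Psmb9 runs to the left and Tap1 to the right. The 225 bases between their starts hold a CCAAT box and a match of TGACGNNA. TGACGNNA is the pattern of the CRE-like part of the module that Nlrc5 and Ciita act through, and a match of it need not be that part. The CCAAT box starts 222 and the TGACGNNA match 86 bases before Tap1, and whether they belong to the same module was not tested. The B2m stretch holds tgacgacc, which misses TGACGNNA only in its last letter. TGACGNNA is in 6.61% of all promoters and CCAAT in 37.4%, the latter also in B2m and Tapbp. The STAT motif TTCNNNGAA was found in Psmb8 (8.30% of all promoters). The Runx motif TGTGGT was found in Tapbp and Psmb10 (16.8%), and its other form TGCGGT in 0 of the 7 (6.45%). These matches describe letters in a short window and not bound sites.

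All 9 measured pDC markers, among them Siglech, Tcf4 and Irf8, passed the brightness filter (a level on either array no lower than that array's median over named genes). Their differences ran from -0.56 for Pacsin1 to 0.073 for Siglech on the log2 scale, with 3 above 0, 6 below and a median of -0.048. Here and below a difference is the Runx2-deficient minus the wild-type log2 value. Runx2 itself has no value here, so the genotype labels were not checked on the targeted gene. Of the genes behind the sorting gate, Bst2 was at -0.31, Ptprc (B220) at 0.13 and Itgam (CD11b) at -0.29. Itgam did not pass the brightness filter. Itgax encodes CD11c, a dendritic cell protein that was stained but did not define the sorted gate. It was 5.39-fold lower without Runx2, at 2047 on the wild-type array and 379 on the Runx2-deficient array. Markers of 3 other cell types were lower as well. All 8 granulocyte markers were lower by 2-fold or more, with a median difference of -2.52. Their summed intensities were 16773 on the wild-type array and 1833 on the Runx2-deficient one. At 2-fold, 0.647% of all named genes and 1.17% of those past the brightness filter were lower. All 6 erythroid markers were below 0, 4 of them by 2-fold or more, with a median of -1.85 and sums of 2128 and 685. All 5 platelet markers were below 0, 2 of them by 2-fold or more, with a median of -0.63. Their sums were 6453 and 1133, or 1615 and 977 without Ppbp, the brightest. The remaining lists went both ways, and single genes set their sums. Of 5 T cell markers 4 were below 0 (median -0.11), while Lat, at 312 and 615, lifted the sum from 847 to 1085. Of 4 B cell markers 2 were above 0 (median 0.020), with Cd79b at 0.26 and Cd79a at -0.58 and sums of 2585 and 2858. Of 4 monocyte markers 3 were above 0 (median 0.015), with Csf1r at 0.64, but Lyz2, which granulocytes also express, was at -1.59, and the sums were 1839 and 965. Rhag, Epor, Klf1, Cd3d, Cd3e, Cd3g, Ms4a1, Pax5, Adgre1 and Fcgr1 did not pass the brightness filter. S100a8, S100a9, Ltf, Camp, Slc4a1, Car2, Alas2, Ppbp and Pf4 passed it only through the wild-type array, where they are high. Csf1r passed it only through the Runx2-deficient array. No marker is listed at 0, and background could not be set for single genes. Most cell types transcribe class I pathway genes, and the part of these other cells in the differences below was not tested. In such sorted samples, fewer cells of a type and less RNA per cell cannot be told apart.

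None of the 10 genes differed 2-fold between the arrays. At that threshold 0 of 10 were higher and 0 of 10 lower on the Runx2-deficient array, where 0.436% of all named genes were higher and 0.647% lower. Among the 10337 genes past the brightness filter, which all 10 passed, the shares were 0.793% and 1.17%. At 1.5-fold the count was still 0 of 10 in each direction, against 3.02% and 3.86% of genes past the filter. The members ran from -0.47 for Tap2 to 0.54 for Nlrc5, with 6 above and 4 below 0 and a median of 0.036. Genes past the filter had a median of -0.014 and a central 95% from -0.72 to 0.63. Above 0 were 47.8% of genes past the filter and 42.6% of all named genes, the background for such counts in the gene lists too. Of the 10 members 9 lay within 0.5 of no difference, as did 90.0% of genes past the filter.

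**Figure D1:**
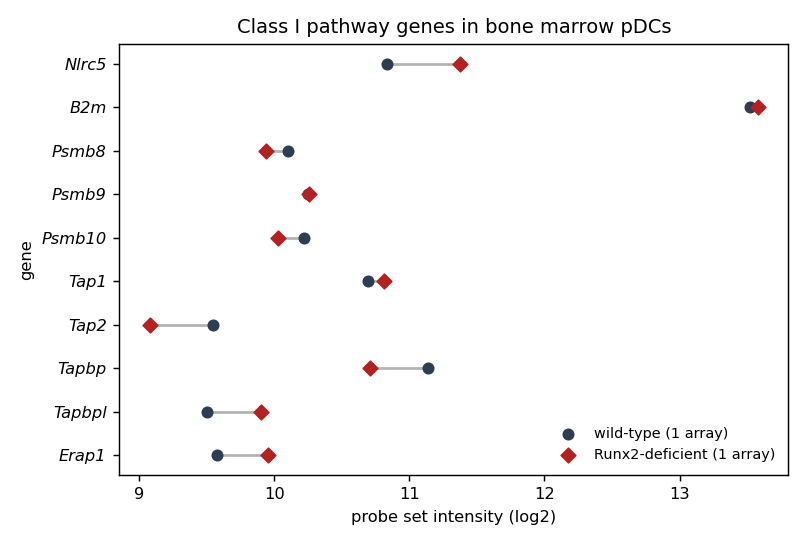
Probe set intensity on the log2 scale (x axis) of the 10 class I pathway genes (y axis), with a circle for the wild-type and a diamond for the Runx2-deficient array, 1 array each. Nlrc5, Tapbpl and Erap1 lie to the right in the Runx2-deficient sample and Tap2 and Tapbp to the left, while B2m and Psmb9 nearly coincide; levels of different genes come from different probes and are not comparable.

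The regulator Nlrc5 had the largest difference of the 10 genes. Its brightest probe set read 1822 intensity units on the wild-type array and 2649 on the Runx2-deficient array, which is 1.45-fold higher in the latter and a log2 difference of 0.54. Of genes past the brightness filter, 3.59% had a difference at least that high.

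Nlrc5 is a long transcript measured by 19 separate probe sets on this array, and it was higher in the Runx2-deficient sample on every one of these 19. Across all probe sets with 1 gene name, 43.8% were above 0. The 19 differences had a median of 0.61 (1.52-fold), a mean of 0.58 and an SD of 0.31 across probe sets, and ran from 0.13 (1.10-fold) to 1.13 (2.19-fold). At least 2-fold was reached by 2 of the 19, where 0.436% of all probe sets with 1 gene name were that much higher, and 10 of the 19 reached 1.5-fold, against 1.93% of all. The probe set with the largest difference read 408 on the wild-type array and 895 on the Runx2-deficient array, and that with the smallest 1993 and 2184. Brightness did not sort them: the 9 brighter probe sets had a median difference of 0.65 and the 10 dimmer ones 0.55. Even the dimmest, at 196 on the wild-type array and 276 on the Runx2-deficient array, differed by 0.49. The 19 probe sets read the same pair of RNA samples, so they are repeated readings of 1 transcript and say nothing about the spread between animals.

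**Figure D2:**
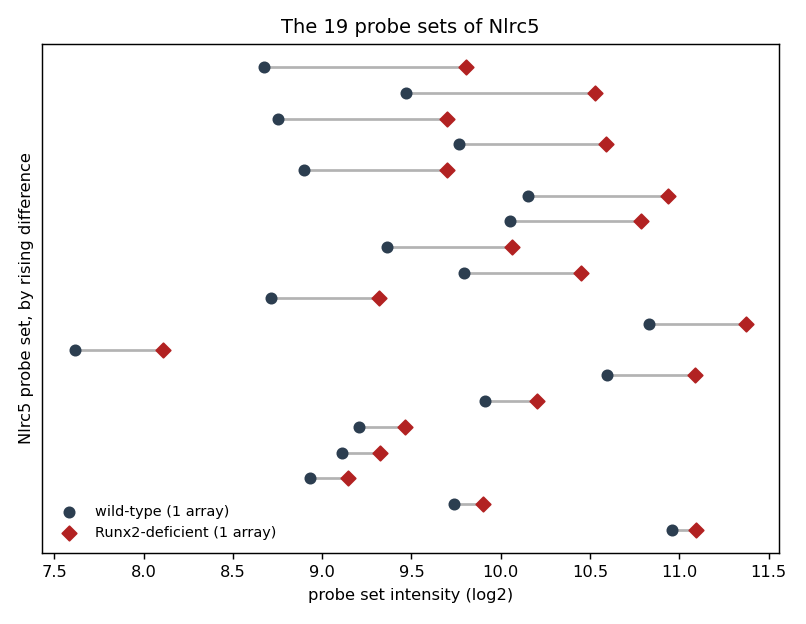
Intensity on the log2 scale (x axis) of the 19 Nlrc5 probe sets, stacked by rising difference (y axis), with circles for the wild-type and diamonds for the Runx2-deficient array. Every diamond lies to the right of its circle, by 0.13 to 1.13.

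B2m, the light chain that every class I molecule needs to fold, was nearly equal on the arrays. It read 11756 on the wild-type array and 12257 on the Runx2-deficient array, a difference of 0.060. Of genes past the brightness filter, 39.0% were at or above this value.

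The 3 immunoproteasome subunit genes were nearly level or slightly lower in the Runx2-deficient sample. Psmb8 read 1100 on the wild-type array and 982 on the Runx2-deficient array, a difference of -0.16. Psmb9 read 1216 and 1226, a difference of 0.012 that is below 0 after a loess correction or quantile normalisation. Psmb10 read 1194 and 1046, a difference of -0.19. Of genes past the brightness filter, 28.9% were at or below the value of Psmb8 and 25.3% at or below that of Psmb10, so differences of this size were common on these arrays.

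Each immunosubunit takes the place of a standard subunit, Psmb8 that of Psmb5, Psmb9 that of Psmb6 and Psmb10 that of Psmb7. Psmb5 read 2618 on the wild-type array and 1965 on the Runx2-deficient array, a difference of -0.41. Psmb6 (666 and 677) and Psmb7 (1132 and 1141) were nearly equal, at 0.025 and 0.011, and both signs turn under quantile normalisation. The difference of the immunosubunit minus that of its standard counterpart was 0.25 for Psmb8, -0.013 for Psmb9 and -0.20 for Psmb10. The 3 pairs thus did not share a direction.

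The TAP transporter is a dimer of the Tap1 and Tap2 products, and its subunits differed unequally. Tap1 read 1653 on the wild-type array and 1794 on the Runx2-deficient array, a difference of 0.12. Tap2 read 748 and 540, which is 1.39-fold lower without Runx2 and the lowest difference of the 10 genes, at -0.47; 6.37% of genes past the filter were at or below it. The difference of Tap1 exceeded that of Tap2 by 0.59, by 0.58 under loess and by 0.62 under quantile normalisation. The other scalings cannot move this gap. Psmb9, Tap1, Psmb8 and Tap2 are direct neighbours in that order on chromosome 17, with no other gene of the RefSeq table between them. Their differences along that order were 0.012, 0.12, -0.16 and -0.47. Tap1 and Psmb9, which share the promoter stretch shown above, were both within 0.12 of no difference.

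The tapasin genes went opposite ways. Tapbp encodes tapasin, which bridges TAP and the class I molecule and helps it select peptides. It read 2252 on the wild-type array and 1674 on the Runx2-deficient array, 1.35-fold lower, a difference of -0.43. Tapbpl encodes the tapasin-related protein TAPBPR, a peptide editor that works apart from TAP. It read 726 and 958, 1.32-fold higher in the Runx2-deficient sample, a difference of 0.40. Tapbpl exceeded Tapbp by 0.83, by 0.82 under loess and by 0.79 under quantile normalisation. Each alone was of a size seen in 7.11% (Tapbpl) and 8.02% (Tapbp) of genes past the filter.

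Erap1, the aminopeptidase that trims peptides in the endoplasmic reticulum to the length class I molecules hold, read 761 on the wild-type array and 991 on the Runx2-deficient array. It was 1.30-fold higher in the latter, a difference of 0.38, and 7.77% of genes past the filter were at or above it. B2m and Erap1, the 2 of the 7 genes searched whose promoter windows hold the interferon-response motif, had differences of 0.060 and 0.38. Nlrc5, Tap2 and Tapbpl had no promoter sequence to search, and a link between motif and difference was not tested.

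**Figure D3:**
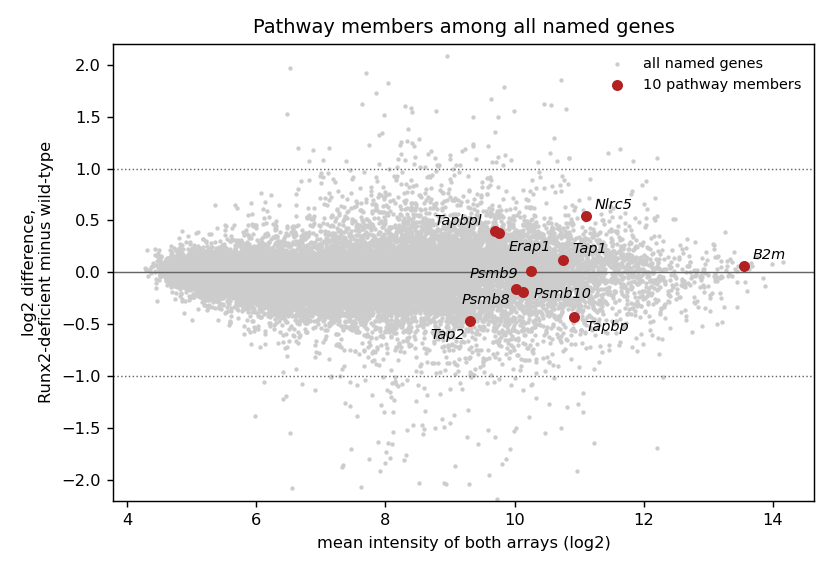
Log2 difference (y axis, Runx2-deficient minus wild-type) against the mean log2 intensity of both arrays (x axis) for all 19938 named genes in grey and the 10 pathway members in red; dotted lines mark 2-fold, and 32 genes beyond 2.2 in either direction lie outside the axis. All 10 members lie between the dotted lines, Nlrc5 highest and Tap2 lowest.

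The rest of the proteasome was close to even. Of 12 other genes of the core particle and its assembly factor, 7 were above 0 and 0 were 2-fold apart, with a median of 0.046. Psmb4, a structural subunit of the core, stood furthest out: it read 1708 on the wild-type array and 961 on the Runx2-deficient array, 1.78-fold lower, a difference of -0.83 that 1.80% of genes past the filter reached. Psma6 was at -0.14 and the assembly factor gene Pomp at -0.10, while Psmb1, Psma5 and Psma7 were at 0.27, 0.24 and 0.13. Of 17 measured genes of the regulatory cap, which feeds proteins into the core, 12 were above 0 and 0 were 2-fold apart, with a median of 0.12. Of genes past the filter, 47.8% were above 0. Its ATPase genes Psmc1 and Psmc5 were at 0.43 and 0.26 and Psmd7 at 0.22, while Psmd3, Psmc4 and Psmd14 were at -0.21, -0.096 and -0.071. A second Psmc1 probe set gave 0.035. The activator genes Psme1 and Psme2, whose products form an interferon-inducible ring that opens the core, were at -0.21 and -0.11. Psme3, a nuclear activator, was at -0.40 and Psme4, a larger one, at 0.37.

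Chaperones and peptidases of the pathway were also near their wild-type levels. Of 6 chaperone genes 4 were above 0 and 0 were 2-fold apart, with a median of 0.12. The oxidoreductase gene Pdia3, whose product sits with tapasin in the peptide-loading complex, was at 0.23, Pdia6 at 0.14, Hsp90b1 at 0.13, and the lectin chaperone genes Calr and Canx at -0.047 and -0.058. Of 6 measured cytosolic peptidase genes 4 were above 0 and 0 were 2-fold apart, with a median of 0.074. Thop1, 1 of those below 0, did not pass the brightness filter. Tpp2, which shortens proteasome products, was at 0.31, Npepps at 0.11, Lap3 at 0.10 and Ide at -0.13.

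Class I heavy chains were only partly measurable, because near-identical copies share probes. Of 19 listed heavy chain genes, 9 have a probe set of their own, and even these may read related copies. The classical genes H2-K1, H2-D1 and H2-L are not among the 9. Of the 9, 2 were above 0 and 7 below, 0 were 2-fold apart, and the median was -0.074. H2-Q10, H2-M2 and H2-M5, all below 0, did not pass the brightness filter, and of the 6 that did, 2 were above 0 and 4 below, with a median of -0.071. The nonclassical genes H2-T24 and H2-T10 were the 2 higher ones. H2-T24 read 1350 on the wild-type array and 2438 on the Runx2-deficient array, 1.81-fold higher, and H2-T10 read 392 and 607, 1.55-fold higher. H2-M3, which presents formylated peptides, was at -0.40, H2-Q2 at -0.16 and H2-K2 at -0.074. A further 7 probe sets carry the names of several heavy chain genes and were assigned to no single gene. Of these, 2 were above 0 and 5 below, from -0.44 to 0.30. The 2 that name both H2-K1 and H2-D1 went opposite ways, at -0.24 and 0.12. Of 4 measured class I-like genes whose products pair with B2m, 3 were above 0 and 0 were 2-fold apart. Of these, Cd1d2, above 0, and Hfe, below it, did not pass the brightness filter. Cd1d1, which presents lipids to NKT cells, read 280 on the wild-type array and 445 on the Runx2-deficient array, 1.59-fold higher, and Mr1, which presents vitamin metabolites, was at 0.17.

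Among the regulators the NLR genes lay furthest apart. Nlrc5 was at 0.54. Nlrc3, described as a brake on immune signalling, read 187 on the wild-type array and 373 on the Runx2-deficient array, a difference of 0.99, and it passed the brightness filter only through the Runx2-deficient array, where it is high. Ciita, the class II transactivator, was at -0.87, with 721 and 395. The difference of Nlrc5 exceeded that of Ciita by 1.41, and by 1.40 to 1.45 under loess, quantile normalisation and averaging of probe sets. Of the DNA-binding partners that both transactivators use, Rfxap was at 0.035, Rfxank at -0.031, and Nfya, Nfyb and Nfyc at 0.058, 0.017 and -0.0052. Rfx5 and Creb1 were slightly higher, at 0.23 and 0.28, and 17.6% and 13.5% of genes past the filter were at or above these values. Of the interferon-pathway factors known to act on class I promoters, Irf1 was at -0.12, Irf2 at -0.23, Irf9 at -0.015 and Stat2 at -0.11, and the NF-kappaB subunit gene Rela was at -0.50. Of the 14 measured regulators 6 were above 0 and 0 were 2-fold apart, with a median of -0.010.

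**Figure D4:**
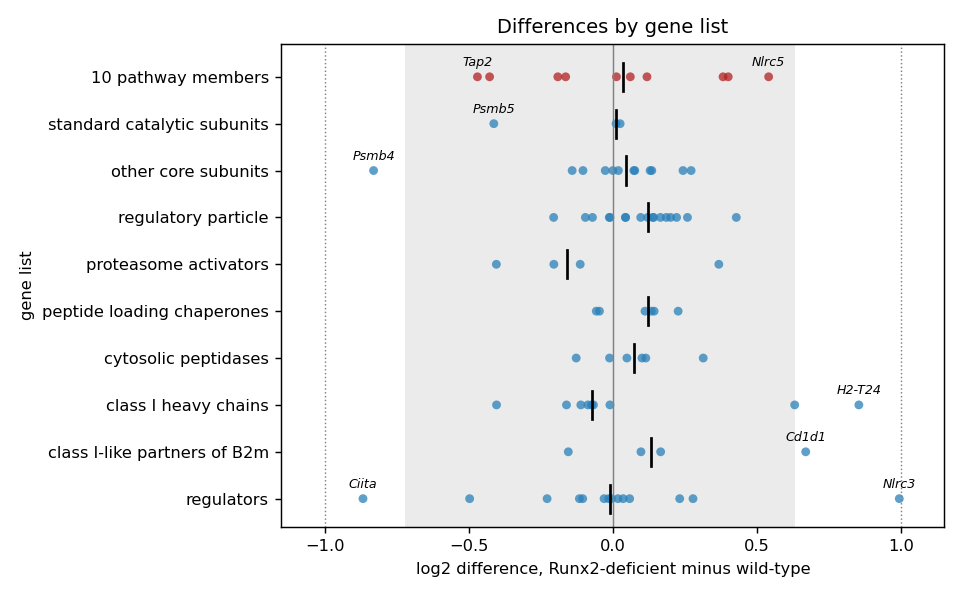
Log2 difference, Runx2-deficient minus wild-type (x axis), of each measured gene in the 10 pathway members (red) and 9 related gene lists (blue, y axis), with a black bar at each list's median; the grey band holds the central 95% of named genes past the brightness filter, -0.72 to 0.63, and dotted lines mark 2-fold. No gene passes 2-fold; Psmb4 and Ciita lie below the band, and Nlrc3 (bright on the Runx2-deficient array only), H2-T24, Cd1d1 and H2-T10 lie above it.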

How the data were processed

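Gene expression was read from 2 arrays, 1 per genotype. The deposited values are linear intensities, made by the authors with RMA (background correction, normalisation between arrays and summary of probes) per the submitters' processing notes; for the software, its version and the set of arrays normalised together, no record is given in the sources used here. Differences of dim probes are compressed by RMA, and no detection call was used. Of 35556 probe sets, 21789 carry 1 gene symbol in the platform annotation, 1621 several and 12146 none. Only the first kind was assigned to a gene. For a gene with several probe sets the brightest by mean log2 was used. Levels were not ranked between genes; the summed intensities of marker lists weight each gene by its probes, so the brightest gene dominates them. The number of arrays limits the precision, and no test across samples was possible.

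Named genes were the 10 members, Psmb5, Psmb6 and Psmb7, marker genes, and up to 3 genes in each direction per related list. Those from related lists were taken by largest difference first, among genes past the brightness filter. The remaining regulators, Psme2, Psmc1's second probe set, the dim genes and the shared H2-K1 and H2-D1 probe sets were named after their values were seen. The members and lists were chosen with earlier results of these data known. Alternatives were median centring, loess on the mean (span 0.3), averaging a gene's probe sets, quantile normalisation, a 1.5-fold threshold and the brightness filter. The calculations were tested on simulated data with planted differences larger than that of any of the 10 members, so recovery of smaller ones was not tested. Motifs were searched on both strands of the RefSeq promoter windows. Tools were matplotlib 3.10.9, statsmodels 0.14.6 (loess), pandas 2.3.3 and numpy 2.4.6 under Python 3.11.15.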

Additional observations from a re-analysis of the deposited data

How the results depend on the processing

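With 1 array per group no replicate could be left out, and no paired analysis was possible because each genotype has a single sample. As a stand-in for a replicate spread, a value was taken as unchanged where it moved by less than 0.26, the robust SD of the differences of genes past the brightness filter, and kept its sign. In either direction 0 of 10 members passed 2-fold under median centring, loess and quantile normalisation, and 0 of 10 passed 1.5-fold. The count was also 0 with the other 2 alternatives. Of these, the brightness filter could not change it, because all 10 passed, and averaging probe sets could move only Nlrc5. The difference of Nlrc5 kept its sign under all 4 alternatives that apply to it. The median of the 10 members, 0.036, turned to -0.0023 under quantile normalisation. Signs turned only for values close to 0. Under quantile normalisation Psmb9 was at -0.047, Psmb6 at -0.033, Psmb7 at -0.046 and the median of the standard catalytic subunits at -0.046. Under loess Psmb9 was at -0.0096, and Psmb7 and that same median at -0.012. The regulators' median was 0.023 after median centring and 0.0010 with the mean of probe sets. The count of regulators at least 2-fold higher went from 0 to 1 with median centring and with loess, through Nlrc3.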

Other observations

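Some transcripts were read by many probe sets, which shows how even a difference is along 1 pair of RNA samples. On these arrays 24 genes have at least 10 probe sets with that gene's name alone. In 18 of them, Nlrc5 among these, no difference repeats between probe sets (to 6 decimals); genes such as Cdc5l, with 3 distinct values in 11 probe sets, were left out. In 5 of the 18 all probe sets lie on 1 side of no difference, 4 above and 1 below, and Nlrc5 has the highest median, at 0.61. The next were Chd7, a chromatin remodeller gene, with a median of 0.53 and 27 of 30 probe sets above 0, and the ubiquitin ligase gene Ltn1, with 0.29 and 16 of 16. Ptpn3, a phosphatase gene, was the lowest, with -0.48 and 0 of 12 above 0. Its probe sets ran from -1.60 to -0.015. These genes were picked after their values were seen, and such readings do not replace animals.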
